A study of Mus musculus with 6 samples.

Results

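Head-to-head gene pairs are 2 protein-coding genes on opposite strands that point away from each other and start close together. Here 748 such pairs were found in the mouse genome (NCBI Build 37, mm9), taking all start sites at most 1000 bp apart, and they hold 1496 of the 20279 protein-coding genes considered, or 7.38%. A region runs from the minus-strand start to the plus-strand start with 500 bp added on both sides, and a gene pair is written below with the minus-strand gene first. The start sites lay between 3 and 994 bp apart (median 158 bp), and 555 pairs, or 74.2%, had them within 300 bp. In all, 19531 promoter regions were counted, of which 18783 belong to genes without a head-to-head partner, called unpaired starts.

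The data are chromatin immunoprecipitation followed by sequencing (ChIP-seq) from wild type C57BL/6 primary myotubes, the multinucleated cells that form when myoblasts fuse. Myoblasts were taken from limb muscle of E18.5 fetuses, had been passaged 17 times, and were differentiated in horse serum medium for 48 h. The 6 libraries form 3 groups of 2: Sox6 (a transcription factor of the SoxD family that acts in fiber type specification), Pol II (RNA polymerase II, with an antibody to the heptapeptide repeat of its largest subunit) and Input (sonicated DNA without antibody). All 3 groups share cells and treatment, so each comparison is of an immunoprecipitate with input DNA, and no knockout or control antibody library was analysed. The Sox6 libraries hold 2985437 and 1468604 mapped reads, the Pol II libraries 1538757 and 2762155, and the Input libraries 21973495 and 24249850. Of the cell type markers, 10 of 10 myotube genes (Myog, Acta1 and others) had more Pol II than input in their bodies, with a median log2 ratio of 5.99, against 0 of 6 fibroblast, 0 of 4 endothelial, 0 of 3 adipocyte and 0 of 3 Schwann or neural markers. Of the 4 macrophage or blood markers, 2 were called (Cd68 and Csf1r), and the summed Pol II density of these 4 was 5.32 and 7.36 RPKM (reads per kilobase of sequence, scaled to the mapped reads of the library) against 1.90 and 1.99 in Input, with Ptprc and Emr1 below input. In such bulk samples fewer cells that use a gene and less Pol II per cell cannot be told apart.

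Head-to-head promoters, also called bidirectional promoters, are a common arrangement in mammalian genomes. Many lie in CpG islands, lack a TATA box and drive housekeeping genes for ribosomes, mitochondria, RNA processing and DNA repair. Pol II initiates in both directions from separate start sites within a shared open stretch, often pauses just downstream of each, and then enters 1 or both gene bodies. A ChIP read carries no information on the strand that is transcribed, so Pol II between 2 close starts cannot be assigned to either gene, whereas Pol II in a body can where no other gene overlaps it.

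Base composition and short words were read from the sequences of these regions. Of the 748 regions, 631 (84.4%) were CpG-rich, that is at least 50% G + C and a ratio of observed to random CpG of at least 0.6, against 8471 of 18783 unpaired starts (45.1%). The median G + C content was 59.4% against 55.2%. In the 300 bp around the centre of the gap, the Ets core CCGGAAG was found on either strand in 220 regions (29.4%). The same word was found in 17.7% of CpG-rich unpaired starts and in 10.5% of all unpaired starts. Their windows had the same length but not the same placement, as they lay mostly upstream of the start. Windows of pairs held neither start where the starts lay over 300 bp apart, and could hold both where they lay closer. The shares of this word and of those below are thus not like for like between pairs and unpaired starts. The CCAAT box was found in 43.4% of pairs, in 37.2% of unpaired starts and in 35.4% of the CpG-rich ones. The TATA box TATAAA was found in 5.48% of pairs and 12.8% of unpaired starts, but in 5.19% of the CpG-rich ones. The GC box GGGCGG was found in 67.4%, 46.6% and 75.5%. The MEF2 word CTAAAAATA, bound by a family of muscle transcription factors, was in no region of a pair, in 0.442% of unpaired starts and in 0.177% of the CpG-rich ones. These words are matches of letters only. Other words were searched as well (NRF1, YY1, CRE, ZNF143, MCAT, E boxes CACGTG and CAGCTG, and Sox words ACAAAG and ACAATG), and where they overlap a printed gap they are in capitals. The complete gaps of 5 pairs follow, from the plus strand of NCBI Build 37. They were taken only from named pairs with gaps under 300 bp, so that their lengths do not stand for all pairs. Srsf7/Ttc39d, Mttp/Rg9mtd2 and Jmjd6/1110005A03Rik had some of the largest Pol II ratios at the region, while Zwilch/Rpl4 and Cct6b/Zfp830 had the largest differences between both genes. Of Hspb2/Cryab, the only pair with a common Sox6 peak, the 300 bases before the Cryab start are shown. The common peak lies downstream of this start, outside the stretch shown, and its sequence is not printed. No annotated transcript covers any of the printed bases. Capitals mark the words searched, on either strand.
Srsf7/Ttc39d, chr17:80606630-80606799: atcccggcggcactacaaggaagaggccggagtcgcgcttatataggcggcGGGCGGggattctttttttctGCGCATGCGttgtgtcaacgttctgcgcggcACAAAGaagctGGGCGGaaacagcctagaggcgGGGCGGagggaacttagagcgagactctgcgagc
Mttp/Rg9mtd2, chr3:137806353-137806411: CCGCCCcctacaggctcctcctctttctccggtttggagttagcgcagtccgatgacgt
Jmjd6/1110005A03Rik, chr11:116704764-116704828: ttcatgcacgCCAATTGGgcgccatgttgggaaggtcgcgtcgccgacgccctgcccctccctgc
Zwilch/Rpl4, chr9:64020912-64021193: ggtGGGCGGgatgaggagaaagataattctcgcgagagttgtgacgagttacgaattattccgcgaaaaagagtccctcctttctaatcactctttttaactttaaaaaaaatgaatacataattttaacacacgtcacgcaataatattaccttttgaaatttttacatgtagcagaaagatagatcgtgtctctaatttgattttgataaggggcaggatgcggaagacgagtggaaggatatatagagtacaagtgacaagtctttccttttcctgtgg
Cct6b/Zfp830, chr11:82577824-82577846: gacgctatcacgcctcggaagct
Hspb2/Cryab, chr9:50560563-50560862: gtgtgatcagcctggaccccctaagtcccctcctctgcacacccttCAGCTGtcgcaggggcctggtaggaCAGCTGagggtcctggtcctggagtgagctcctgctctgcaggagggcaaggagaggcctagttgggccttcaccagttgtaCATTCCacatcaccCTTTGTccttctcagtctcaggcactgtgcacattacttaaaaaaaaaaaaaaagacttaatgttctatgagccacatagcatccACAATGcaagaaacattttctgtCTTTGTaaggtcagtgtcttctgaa
The gap of Cct6b/Zfp830 is only 23 bases and holds none of the words. The gap of Jmjd6/1110005A03Rik holds CCAAT on both strands, overlapping each other. The stretch beside Cryab holds CAGCTG at 2 places, ACAATG at 1 place and ACAAAG at 2 places on the minus strand.

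Pol II was abundant at head-to-head promoters. Of 734 regions with at least 10 reads over the 4 libraries, 571 (77.8%) had more Pol II than input, with a median log2 ratio of 2.36 (limma with precision weights, Benjamini-Hochberg adjusted p below 0.05). No region had less by limma, and 3 had less at an unadjusted p under 0.05, where 1.92% of all regions did. At the density of Input the median region would hold only 0.999 and 1.79 reads of Pol II, so that a region with less was hardly detectable. With reads added in equal RPM 10 were called lower, but that setting lowers the ratio where Pol II has few reads. In simulated data it called many unchanged regions lower, so that these 10 calls cannot be taken as less Pol II. Over all 15797 promoter regions tested 45.4% had more and 1.06% less, and over unpaired starts the first share was 43.8%, with a median of 1.33. Pooled over the 748 regions, the Pol II density was 3.26 and 3.10 RPKM in replicates 1 and 2. Input had 0.491 and 0.618 RPKM at the same regions, where reads spread evenly over the genome would give 0.377. At unpaired starts, Pol II was at 1.67 and 1.61 RPKM and Input at 0.377 and 0.437. The 14 regions below the read minimum were not tested. The contrast of shares depended on this minimum, which counts Pol II reads as well: with at least 50 reads, 89.4% of 322 pairs and 89.5% of all regions had more Pol II than input, with medians of 2.53 and 2.78. The 0.5 reads added raise the ratio of windows with few reads, whereas reads added in equal RPM lower it where Pol II has few. With the latter, 376 of the 734 regions (51.2%) had more Pol II than input, where 27.2% of all regions did. The medians were then 2.26 for pairs and 1.14 for all regions, against 2.36 and 1.41. The pooled densities use every region and no added reads.

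Base composition moved with this comparison. Among CpG-rich regions 510 of 623 pairs (81.9%, median log2 2.46) and 5013 of 7269 unpaired starts (69.0%, median 2.31) had more Pol II than input. Among regions that were not CpG-rich the counts were 61 of 111 pairs (55.0%, median 1.60) and 1591 of 7794 unpaired starts (20.4%, median 0.30). CpG-rich pairs had 3.50 and 3.31 RPKM of Pol II and CpG-rich unpaired starts 2.59 and 2.46. Input was higher at these pairs as well, with 0.482 and 0.622 RPKM against 0.385 and 0.475 at the unpaired starts. Both sets were read in the same libraries and regions are not replicates, so these levels are a description with no test. A head-to-head region also holds 2 starts where an unpaired one holds 1.

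**Figure D1:**
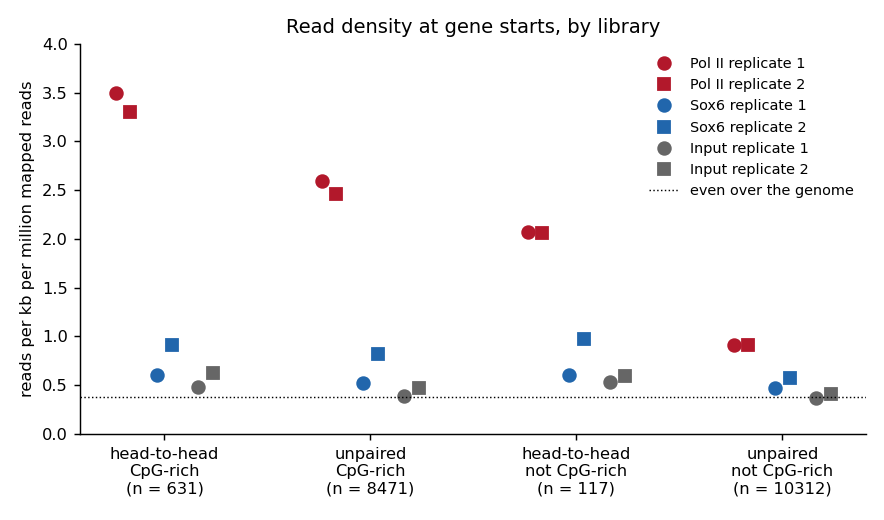
Pooled read density (RPKM, y axis) at gene starts in 4 sets of promoter regions (x axis), with 1 point for each library; circles are replicate 1 and squares replicate 2, and the dotted line is the density of reads spread evenly over the genome. Pol II is highest at CpG-rich head-to-head regions (3.50 and 3.31) and lowest at unpaired starts that are not CpG-rich (0.909 and 0.915), while Sox6 lies between 0.475 and 0.976 in all 4 sets.

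By distance between the starts, regions with starts 1 to 100 bp apart had more Pol II than input in 199 of 252 cases (79.0%, median log2 2.45), and those over 600 bp apart in 51 of 72 (70.8%, median 2.08). The pooled Pol II density was 3.28 and 3.24 RPKM in the closest class, 3.28 and 3.07 at 101 to 300 bp, 2.92 and 2.71 at 301 to 600 bp, and 3.61 and 3.37 in the widest, so that it did not follow the distance. CpG-rich regions made up 89.5% of the closest class and 63.9% of the widest. Pol II peaks called by the authors overlapped 127 regions (17.0%) in replicate 1 and 205 (27.4%) in replicate 2, against 7.05% and 10.8% of unpaired starts.

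The 10 regions with the largest Pol II ratios included genes of splicing and translation. The region of Ddx5/Ccdc45 held 39 and 87 reads of Pol II (14.7 and 18.3 RPKM) and 11 and 22 of Input (0.291 and 0.527 RPKM). Ddx5 encodes an RNA helicase, and the log2 ratio was 5.37 (SE 0.37, adjusted p 8.0e-45, limma). Both Pol II libraries lay far above both Input libraries. Rpl15/Nkiras1 (a ribosomal protein and an inhibitor of NF-kB signalling) had 13.4 and 11.8 RPKM of Pol II against 0.213 and 0.655 of Input. At Srsf7/Ttc39d and Srsf2/Mfsd11, which carry genes for splicing factors of the SR family, Pol II was at 14.4 and 14.5 RPKM and at 16.9 and 14.9 RPKM, with Input between 0.448 and 0.692 at both. The other 6 of the 10 regions were Mttp/Rg9mtd2, Jmjd6/1110005A03Rik, 2700097O09Rik/Srp54b, Pcid2/Cul4a, Dbi/3110009E18Rik and Tmem129/Tacc3, with log2 ratios from 4.32 to 4.59. The ratio of 2700097O09Rik/Srp54b rests on 11 and 16 reads of Pol II and 2 and 17 of Input, and its adjusted p was 0.065 when the pseudocount was equal in RPM in every library.

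Pol II was also found in the bodies of many paired genes, counted from 500 bp after the start to the end of the gene. Of 1462 bodies tested, 761 (52.1%) had more Pol II than input and 160 (10.9%) less, with a median log2 ratio of 0.67. Over all 18359 gene bodies the shares were 39% and 23.7% and the median was 0.17, and over the unpaired genes 37.9% and 24.8% with a median of 0.10. The scaling of libraries moved these values. With libraries scaled to reads outside gene starts and peaks, the median of all bodies was 0.42, and 879 paired bodies were higher and 104 lower. Of the 1496 genes, 26 have less than 500 bp of body left and 8 more had too few reads.

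The 2 genes of a pair were often unlike. Among 723 pairs with both bodies tested, both were above input in 221 (30.6%), 1 in 311 (43.0%) and neither in 191 (26.4%). The difference between both bodies of a pair in Pol II, less that in Input, was called in 409 pairs, which is 56.6% of the pairs tested. As each test is within a pair, that share is also the background of this comparison. In 191 of them the plus-strand gene was higher and in 218 the minus-strand gene. The median difference among the 409 was 2.68-fold, 301 were over 2-fold, 97 over 4-fold and 18 over 8-fold, and the largest was 15.5-fold. Of 332 pairs that differed over 2-fold in replicate 1, 94.3% had the same direction in replicate 2, and 97.4% of 308 pairs the other way round. For these shares each Pol II library was set against the Input library of its number. Differences were called in 236 of the 311 pairs with 1 body above input, in 110 of the 221 with both and in 63 of the 191 (33.0%) with neither. The classes and the differences use the same body reads, so that more calls among pairs with 1 body above input are built in.

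**Figure D2:**
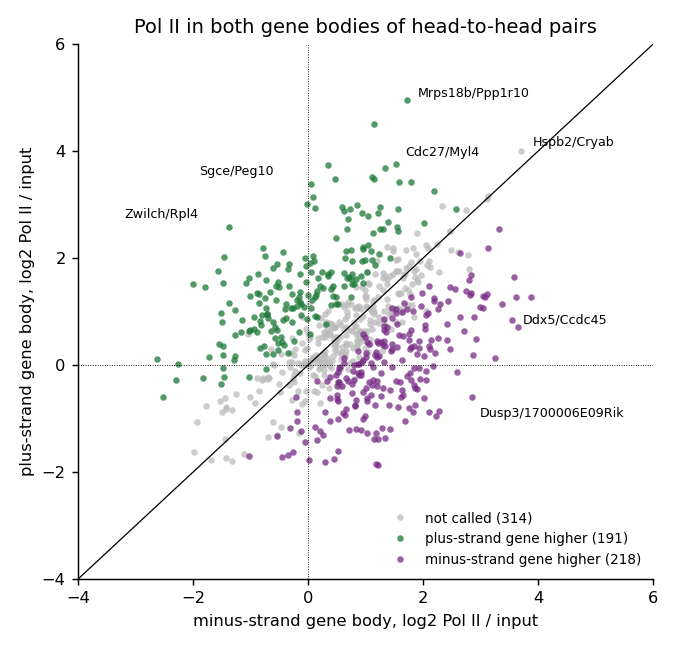
Log2 ratio of Pol II to input in the minus-strand (x axis) and plus-strand (y axis) gene body of 723 head-to-head pairs, 1 point a pair, with the line of equality. Grey points (314) were not called different; green (191) and purple (218) points have more Pol II in the plus-strand and minus-strand gene, such as Zwilch/Rpl4 and Dusp3/1700006E09Rik.

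Gene length moved with the difference: the higher body was the shorter one in 273 of the 409 pairs (66.7%), with a median of 14.9 kb against 24.8 kb for the lower one. When both bodies were cut to the length of the shorter one, an alternative chosen after these values had been seen, 319 pairs were called, of which 297 were among the 409 with the same direction, while 11 of the 409 took the opposite sign. In 122 of the 409 pairs a body overlaps another gene. Leaving out bodies that do so left 514 pairs, of which 287 (55.8%) differed. As a description, the log2 ratios of the 2 bodies had a Pearson r of 0.288 over the 723 head-to-head pairs. It was 0.674 over 526 tail-to-tail neighbours at most 1000 bp apart, whose ends face each other, and 0.430 over 456 neighbours on the same strand. The quartiles of the log2 ratio were -0.01 and 1.36 for paired bodies and -0.92 and 1.12 for unpaired ones, and r depends on such a spread. The median absolute difference between both genes was 0.83 on the log2 scale for head-to-head pairs and for neighbours on the same strand, and 0.71 for tail-to-tail neighbours. These points share libraries, and bodies of neighbours that end close together can receive the reads of each other.

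The 8 largest differences included 2 genes of cytosolic ribosomal proteins, each the higher one of its pair. At Zwilch/Rpl4, the body of Rpl4, a protein of the large ribosomal subunit, had 4.86 and 5.19 RPKM of Pol II against 0.915 and 0.803 of Input. The body of Zwilch, a kinetochore protein of dividing cells, had 0.293 and 0.184 RPKM against 0.586 and 0.579. Rpl4 was thus above and Zwilch below input in both replicates, and the difference was 3.96 on the log2 scale (SE 0.31, adjusted p 1.1e-12, limma). The Zwilch body overlaps another gene, as does, among the other bodies of these 8 pairs, only that of Lsmd1. Rps2, a protein of the small subunit, had 10.7 and 10.4 RPKM of Pol II, while its partner Rnf151 had 0.756 and 1.05, with Input between 0.397 and 0.552 in both. The difference of this pair was 3.37 (SE 0.52, adjusted p 1.4e-06). Its region held 1 and 5 reads of Pol II and 14 and 14 of Input and was not called (log2 1.11, adjusted p 0.21, limma). Within 500 bp after the Rps2 start there were 1 and 1 reads of Pol II and 7 and 5 of Input. Pol II was at 8.34 and 7.29 RPKM in Peg10, a retrotransposon-derived gene, and at 1.09 and 0.981 in Sgce, which encodes epsilon-sarcoglycan. Input was at 1.06 and 0.924 RPKM in Sgce, so that this body did not stand above input (log2 0.05, adjusted p 0.73), and Peg10 exceeded it by 3.32 (SE 0.14, adjusted p 4.6e-20). Both are known as imprinted genes transcribed from the paternal allele, and these reads do not separate alleles.

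Among the other pairs of this group, Dusp3, a protein phosphatase, had 4.06 and 4.59 RPKM against 0.138 and 0.462 for 1700006E09Rik. The region between both starts held 1 and 0 reads of Pol II and 13 and 16 of Input, so that body signal came without signal at the annotated start. Cct6b/Zfp830, 5033411D12Rik/2810021B07Rik, Cyb5d1/Lsmd1 and Wfdc3/Dnttip1 all had more Pol II in the plus-strand gene, by 3.31 to 3.51 on the log2 scale. The body of 5033411D12Rik is 836 kb long and that of Lsmd1 0.534 kb, and the Cyb5d1 body held no read of Pol II in replicate 1. Over all pairs tested, 75 had at least 1 body above input at a region that was not called.

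Other pairs carried Pol II on both sides at nearly equal ratios. Among the closest were Emg1/Phb2, Kctd10/Ube3b, Gnptg/0610007P22Rik, Eme2/Mrps34 and Klhdc3/Mea1. In each of these pairs at least 1 body overlaps another gene (those of Emg1, Kctd10, Gnptg, 0610007P22Rik, Eme2 and Mea1), whose Pol II cannot be told apart from that of the pair. In Emg1, a factor of ribosome assembly, the Pol II density was 3.74 and 3.47 RPKM and in Phb2, a prohibitin of the inner mitochondrial membrane, 2.52 and 2.72; the log2 ratios were 1.94 and 1.95. Their difference was 0.01 (SE 0.29, adjusted p 0.98), and a difference within this error was not detectable. In Klhdc3 and Mea1 the ratios were 3.12 and 3.09 on the log2 scale, with a difference of -0.02 (SE 0.39, adjusted p 0.97). Eme2/Mrps34 did not stay equal when both bodies were cut to the length of Mrps34, which is 0.674 kb. The difference was then 2.52 (adjusted p 0.0072). Over all 723 pairs, 273 (37.8%) differed by less than 1.5-fold.

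**Figure D3:**
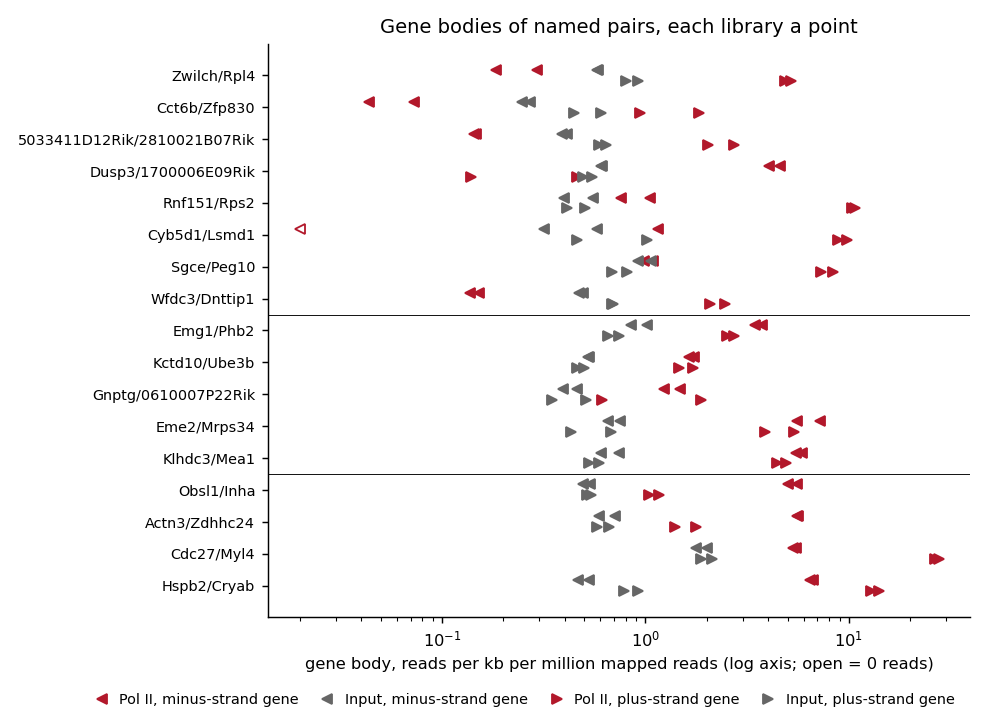
Read density in the bodies of named pairs (x axis, RPKM, log axis), with 1 symbol for each library; left-pointing symbols are the minus-strand gene, right-pointing ones the plus-strand gene, red Pol II and grey Input. The upper 8 pairs had the largest differences, the middle 5 are among the smallest with both bodies above input, and the lower 4 carry muscle genes, where Myl4 reached 26.6 and 27.6.

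Close to the starts few differences were detected. Within 500 bp downstream of each start, 522 pairs had enough reads and 5 differed (0.958%), with 3 higher on the minus strand; they are named here after their values were seen. At Iqcg/Rpl35a, Rpl35a (a ribosomal protein) had 8 and 16 Pol II reads in this window and Iqcg 0 and 0, against 3 and 10 and 10 and 14 of Input (adjusted p 0.0047). At Rsrc2/Kntc1, Rsrc2 had 8 and 11 and Kntc1, a kinetochore protein, 0 and 0 (adjusted p 0.0089). The others were Tom1l2/Lrrc48, Rps6kb1/Tubd1 and Abca17/Abca3, each with at most 1 read of Pol II on the lower side. These 5 calls were lost when any 1 library was left out, and with windows of 1000 bp 68 pairs differed. Windows of 500 bp hold few Pol II reads at these totals.

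Summed over pairs, both sides were compared at 3 distances. In 570 pairs with long bodies, the stronger side was chosen by the body reads of 1 replicate and read in the other. In replicate 2, the stronger side had 3.50 RPKM of Pol II and the weaker 2.60 within 500 bp downstream, a ratio of 1.35. The ratio was 1.75 from 500 to 2000 bp and 1.95 from 2000 to 5000 bp. In replicate 1 the ratios were 1.33, 1.72 and 2.04. Input had ratios of 0.889, 1.06 and 1.06 in replicate 2 and of 0.883, 1.04 and 1.08 in replicate 1, so that it rose along the genes as well. Divided by those of Input, the Pol II ratios were 1.51, 1.65 and 1.83 in replicate 2 and 1.51, 1.66 and 1.88 in replicate 1. Bodies begin 500 bp after the start, so that the farther windows lie within the values that chose the side and the first one does not. This choice favours larger ratios in the farther windows, and reading the other replicate removes counting noise only, so that no change with distance can be read from these ratios.

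**Figure D4:**
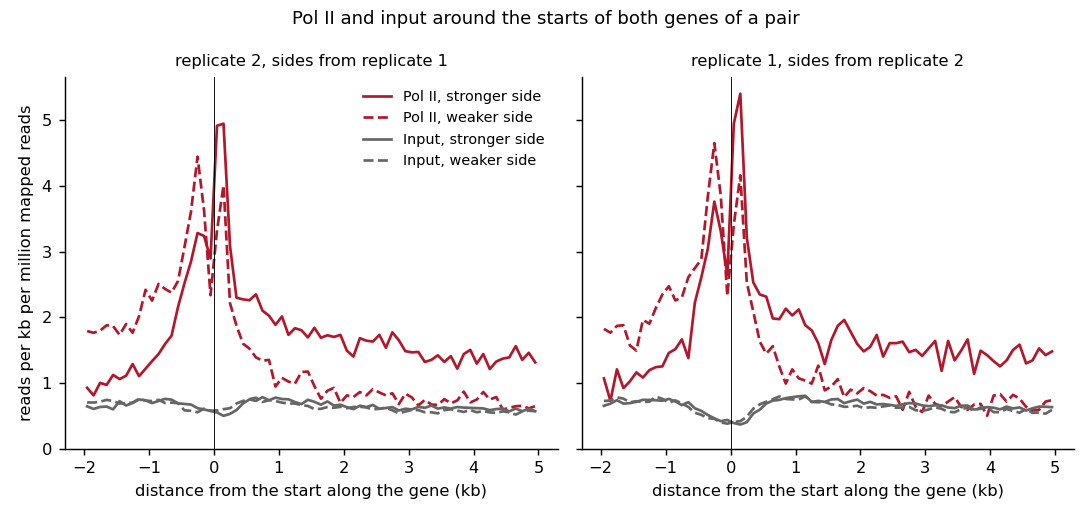
Read density (RPKM, y axis) in bins by distance along the gene from each start (x axis, kb; the partner lies to the left), over 570 head-to-head pairs, with sides chosen by the body reads of the other replicate. Pol II (red) peaks on both sides of the starts, and beyond 2 kb the stronger side (solid) has 1.46 and 1.47 and the weaker (dashed) 0.748 and 0.721, while Input (grey) is lower on the stronger side within 500 bp (ratios 0.889 and 0.883) and slightly higher beyond 2 kb (1.06 and 1.08).

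Functional lists of genes were counted by the side of the pair that their members took. Of 10 cytosolic ribosomal protein genes in pairs, 9 had a testable body. All 9 had more Pol II than input (median log2 3.15, where all bodies had 0.17), where 52.1% of all paired bodies did. All 9 exceeded their partner, by a median of 2.34, where a difference in either direction was called in 56.6% of all pairs. Over the whole genome 75 of 77 such genes were above input, with a median of 2.86. Rps18 had 7.47 and 7.54 RPKM against 1.16 and 1.46 for its partner Vps52, a vesicle tethering protein, and Rpl9 had 5.29 and 3.23 against 0.869 and 0.988 for Lias, the lipoic acid synthase. The Rps18 body is 3.22 kb long and that of Vps52 10.7 kb, and the Rpl9 body 2.58 kb and that of Lias 18.7 kb. The Rps2 body, in turn, is longer than that of Rnf151 (3.1 and 1.7 kb). The counts of this list were not repeated with both bodies cut to equal length. Genes of this list have near-identical copies elsewhere in the genome, so that some of their reads may have been lost in mapping, which would touch Input as well.

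Of 40 genes of RNA processing and splicing, 29 bodies were above input (median 1.08), where 52.1% of all paired bodies were. Over the whole genome 123 of 162 genes of this list were above input, with a median of 1.16. The listed gene exceeded its partner in 21 of 40 pairs and fell below it in 6, where a difference in either direction was called in 56.6% of all pairs. Hnrnpa1, which encodes a protein that binds nascent transcripts, had 6.71 and 6.88 RPKM and its partner Cbx5 (heterochromatin protein 1 alpha) 2.58 and 2.77. Of 37 bodies of DNA repair and replication genes, 7 were above and 9 below input (median 0.01), where the shares of all paired bodies were 52.1% and 10.9%. Over the whole genome 41 of 138 genes of this list were above input, with a median of -0.12. Of 33 pairs with 1 such gene the gene exceeded its partner in 7 and fell below it in 18, with a median of -0.87. Among them, Rad1, a checkpoint protein, had 0.364 and 0.637 RPKM where its partner Brix1, a factor of ribosome assembly, had 2.01 and 1.66. Orc3, of the origin recognition complex, went against this, with 1.95 and 2.26 RPKM where Rars2, a mitochondrial arginyl-tRNA synthetase, had 0.814 and 0.777.

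Members of the mitochondrial lists took both sides. Subunits of oxidative phosphorylation were above input in 18 of 22 bodies (median 1.46), but exceeded their partner in 8 pairs and fell below it in 5 of 20. Mitochondrial ribosomal proteins exceeded their partner in 4 and fell below in 4 of 16. At Mrps12/Sars2, where both products act in mitochondrial translation, Mrps12 had 9.29 and 6.25 RPKM and Sars2, the mitochondrial seryl-tRNA synthetase, 0.629 and 0.924, a difference of -2.95 (SE 0.40, adjusted p 1.7e-07). At Mrps18b/Ppp1r10 the mitochondrial gene was the lower one, with 2.48 and 1.51 RPKM against 19.96 and 19.7 for Ppp1r10, a nuclear targeting subunit of protein phosphatase 1. Import factors and chaperones exceeded their partner in 3 and fell below in 1 of 5 pairs, tRNA synthetases in 4 and 2 of 8, proteasome and ubiquitin genes in 8 and 4 of 20, and zinc finger genes in 6 and 2 of 14. Their bodies were above input in 6 of 7, 4 of 8, 15 of 22 and 12 of 22 cases, where 52.1% of all paired bodies were. Replication-dependent histone genes, which are small, had 9 of 11 regions above input, close to the 77.8% of all pairs, as at Hist1h2ac/Hist1h2bc with 6.23 and 3.76 RPKM of Pol II and 0.400 and 0.659 of Input. Col4a4/Col4a3, the type IV collagen chains of mature basement membranes, had both bodies below input. Its region held too few reads to be tested (3 and 3 of Input). The lists hold between 2 and 40 paired genes each, and across all pairs a difference was called in 56.6%.

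**Figure D5:**
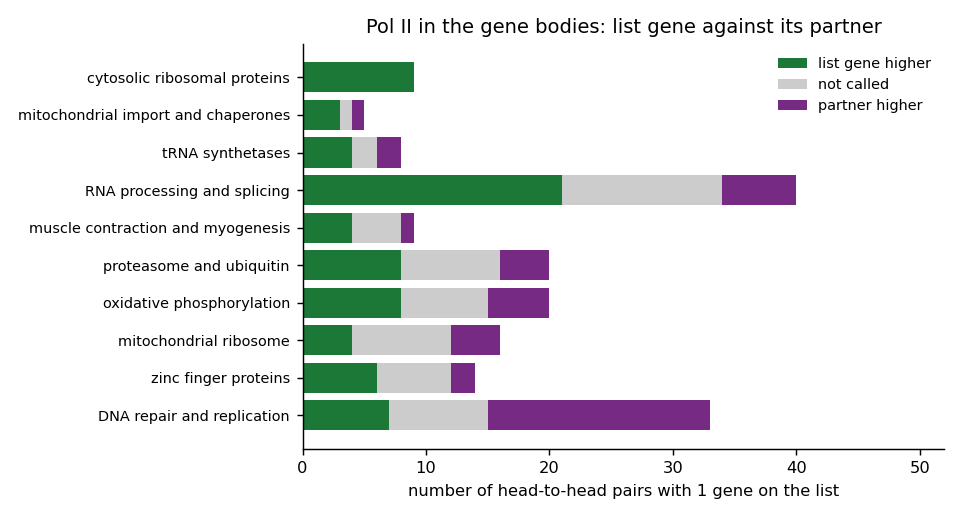
Number of head-to-head pairs (x axis) with 1 gene on a functional list (y axis), split by whether Pol II in its body was higher than in its partner (green), not called different (grey) or lower (purple). Cytosolic ribosomal proteins were higher in 9 of 9 pairs, RNA processing genes in 21 of 40, and DNA repair and replication genes lower in 18 of 33.

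The list of muscle contraction and myogenesis genes has 9 of its 166 members in such pairs (5.42%), of which 5 bodies were above input (median 2.10) and 4 exceeded their partner, while 1 fell below it, Sgce. These counts are near the 52.1% of all paired bodies and the 56.6% of all pairs. Myl4, the embryonic and atrial myosin light chain, had 26.6 and 27.6 RPKM of Pol II, and its partner Cdc27, a subunit of the anaphase-promoting complex, 5.50 and 5.31. Input was at 1.88 and 2.14 RPKM in Myl4 and at 2.00 and 1.77 in Cdc27, above the 0.545 and 0.532 of paired bodies as a whole. Relative to input, Myl4 exceeded Cdc27 by 2.24 (SE 0.10, adjusted p 4.6e-20). Actn3, the alpha-actinin of fast fibers, had 5.54 and 5.64 RPKM, and relative to input it exceeded Zdhhc24, a palmitoyltransferase, by 1.78 (SE 0.28, adjusted p 2.1e-06). Obsl1, a cytoskeletal adaptor related to obscurin, had 4.99 and 5.58 against 1.16 and 1.04 for Inha, the inhibin alpha chain. Smyd1, a muscle methyltransferase named here after its values were seen, had 3.45 and 3.71 RPKM over its body, whereas Cd8b1, a T cell coreceptor chain, had 0.276 and 0.256 and the region between both annotated starts held no read of Pol II.

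At Hspb2/Cryab both genes carried Pol II and no difference between them was called. They encode small heat shock proteins of muscle, HSPB2 and alphaB-crystallin, and start 404 bp apart. The bodies had 6.64 and 6.47 RPKM of Pol II in Hspb2 and 12.9 and 14.0 in Cryab, against 0.465 to 0.916 of Input. Relative to input their difference was 0.29 (SE 0.46, adjusted p 0.61). At the region, Pol II held 24 and 49 reads (11.1 and 12.6 RPKM) and Input 20 and 28 (0.648 and 0.822 RPKM).

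In the Sox6 comparison, Hspb2/Cryab was the only region of a pair called in the test used here. Of 730 head-to-head regions tested, 1 had more Sox6 than input, where over all 15862 promoter regions the share was 0.347%. The count depended on the processing: it was 30 of 724 (4.14%, where 4.61% of all regions were called) without Sox6 replicate 1, 11 without precision weights, 7 without a filter, and 0 without Input replicate 1 or with reads added in equal RPM. At an unadjusted p under 0.05, counted in either direction, there were 69 regions (9.45%), below the 13.5% of all promoter regions. Pooled over the 748 regions, Sox6 was at 0.602 and 0.920 RPKM and Input at 0.491 and 0.618. The median region held 2 and 1 reads of Sox6, so that a moderate enrichment was not detectable at this depth. Hspb2/Cryab held 12 and 20 reads of Sox6 (2.86 and 9.69 RPKM), above both Input libraries, with a log2 ratio of 2.59 (SE 0.45, adjusted p 1.6e-05, limma). Its adjusted p was 0.086 without Input replicate 1 and 0.33 with a pseudocount equal in RPM. Of the 1066 Sox6 peaks that the authors list as common to both replicates, counting nearby peaks as overlapping, 1 overlapped a head-to-head region (0.134% of pairs) and 18 an unpaired start (0.0958%). It lies at chr9:50561022-50561121, from 159 to 258 bp downstream of the Cryab start used here. Other annotated Cryab starts follow at 50561125, just after the peak, and at 50561430, outside the region counted. The peaks of the single replicates lie at chr9:50561072-50561151 and chr9:50560772-50561071, which abut and share no base, the latter reaching into the gap printed above. Pol II peaks cover the same place in both replicates.

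Over the bodies, Sox6 was above input in 70 of 1463 paired genes (4.78%) and below it in 18 (1.23%), where the shares over all 18388 bodies were 8.35% and 2.05%. The median log2 ratio was 0.07 for paired and 0.17 for unpaired genes. Of the 9 muscle genes in pairs, 3 were called: Obsl1 (log2 0.83, adjusted p 0.011), Actn3 (0.69, adjusted p 0.045) and Myl4 (0.61, adjusted p 0.00084). The 10 myotube markers, which had much Pol II, also had more Sox6 in sum, with 15.6 and 19.0 RPKM against 7.13 and 7.36 of Input. Whether such an excess goes with high Pol II was not tested, and no control antibody library was analysed. The Cdc27 body had 1.68 and 1.61 RPKM of Sox6, both below its own Input. The Hspb2 body held 0 reads of Sox6 in both replicates, where only 1.16 and 0.572 would be there at the density of Input, and Cryab was level with input (log2 0.01, adjusted p 0.99). Psmg2, a proteasome assembly chaperone named here after its values were seen, had 3.42 and 5.02 RPKM of Sox6 against 0.932 and 0.827 of Input, a log2 ratio of 2.17 (SE 0.17, adjusted p 8.4e-11). The Sox6 and Pol II comparisons share their Input libraries, so that a low Input raises both. The number of bodies called for Sox6 rested on single libraries: it was 8 without Sox6 replicate 2, 35 without Sox6 replicate 1, and 142 without Input replicate 2. It was 151 (10.3%, where 16.6% of all bodies were called) with the replicate number as a block, and 21 when a log2 ratio over 1 was also asked for. The study's methods used the Input of each ChIP experiment for peak calling, and the labels do not say which Input library belongs to which ChIP library.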

How the data were processed

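Sox6, Pol II and Input ChIP-seq libraries were compared, 2 libraries each. The authors aligned reads with Bowtie 0.12.5 to NCBI Build 37 and kept uniquely mapped ones, and called peaks with SISSRs against input. The deposited files hold genomic positions of mapped reads and of peaks, with no counts, and an unnamed score of the Pol II peaks was not used. Read lengths were 39 bases, and 36 in Input replicate 1. Reads at repeated positions (2.96% to 7.88% of a library) were kept.

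Protein-coding genes of GENCODE were matched by symbol to RefSeq, which left 20279, with the longest coding model giving each start. Pairs whose starts cross were left out. Reads were counted by their 5′ ends in windows and scaled to all mapped reads of a library. After adding 0.5 reads, windows with at least 10 reads over the 4 libraries compared were tested with limma 3.58.1 (R 4.3.3) and precision weights computed as in voom, with p-values adjusted by the Benjamini-Hochberg method over all windows of a kind, at 0.05. A log2 ratio is Pol II or Sox6 over Input. The difference of a pair is that of both bodies after subtracting Input. Levels were computed in Python 3.11.15, and the steps were tested on simulated data. The methods call the ChIPs of each factor independent experiments, without saying whether the cultures were separate, so that p-values measure only the spread between these libraries, which may be technical. The spread of each window is moderated by limma with that of all windows of the same test. A small p of a single region thus does not rest on the replicates of that region alone.

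Named pairs are the 10 largest Pol II ratios at regions, the 8 largest and the 6 smallest body differences, the pair with a common Sox6 peak, and examples of the lists; some of these are not reported here. The pairs and lists were chosen with earlier results of these data known. Alternatives covered the reads added, weights, scaling, repeated positions, read shift, filters, window sizes, start sites, overlapping genes, the call rule, a block on the replicate number, leaving out each library and, chosen after seeing the data, equal body lengths and CpG-rich regions counted apart.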

Additional observations from a re-analysis of the deposited data

How the results depend on the processing

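The number of head-to-head regions with more Pol II than input, 571, stayed between 502 and 603 under 11 of 13 alternatives; it was 376 with reads added in equal RPM and 288 with at least 50 reads, where 322 regions were tested and the share equalled that of all regions (89.4% and 89.5%). Leaving out 1 library, which assumes that the lone library of its group varies like the other group, gave 520 to 569. Bodies with more Pol II than input (761) ranged from 537 to 879 and from 599 to 807 with 1 library left out, and differences within pairs (409) from 287 to 410 and from 329 to 390. The single Sox6 region became 0 with reads added in equal RPM, 2 with shifted reads, with wider regions or with at least 50 reads, 3 with narrower regions, 7 without a filter and 11 without precision weights, and 0 to 30 with 1 library left out (30 without Sox6 replicate 1, 2 without Sox6 replicate 2, 0 without Input replicate 1). The 70 bodies with more Sox6 became 21 when a log2 ratio over 1 was also asked for, and 8 to 142 with 1 library left out (8 and 35 without Sox6 replicates 2 and 1, 142 without Input replicate 2). The 5 start-proximal differences became 9 with shifted reads, 3 with repeated positions counted once, 2 in windows of 250 bp, 68 in windows of 1000 bp, and 0 with reads added in equal RPM, without a filter, without weights or with at least 50 reads, where 1 pair was tested; leaving out any library gave 0. With the replicate number as a block, bodies with more Sox6 rose to 151 (10.3%, against 16.6% of all bodies), start-proximal differences fell to 0 and the Pol II body counts were 804 higher bodies and 406 differences. The labels do not say that a number marks a shared experiment. The deviations of samples with the same number correlated by 0.036 over windows for Pol II and Input and 0.026 for Sox6 and Input. Promoter windows hold few reads, where counting noise can hide a shared experiment, so that these correlations cannot exclude a pairing. As no label gives a pairing, none was used in the tests. Descriptions by replicate did set each Pol II library beside the Input library of its number. Of 440 recomputed values of named pairs, 435 stayed on their side of the threshold and none changed sign while called. Besides those given with the pairs, Cyb5d1/Lsmd1 was lost without weights (adjusted p 0.062). Where no construction of the alternative shows it, the cause was not tested. Low read totals in the Sox6 and Pol II libraries limit single regions more than bodies.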
